A study of Mus musculus with 20 samples.

Results

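Adipocyte genes were followed through pieces of mouse breast tumor. The 10 genes were given by symbol as known genes of fat cells, and all 10 were found among the 43346 genes of the count table. They are 4 genes of proteins that fat cells secrete (Adipoq, Lep, Retn and Cfd), 2 genes of the lipid droplet coat (Plin1 and Cidec), the fatty acid carrier Fabp4, the transcription factor Pparg and 2 lipases (Lipe and Pnpla2). RNA was sequenced from 20 late-stage tumors, 1 from each of 20 female hybrid mice, [BALB/c-neuT x FVB/J] F1. Every mouse carried neuT, a transforming rat neu (Her2) oncogene under a mammary tumor virus promoter, and no sample without neuT and no normal mammary gland was analysed here. Sample names put 9 tumors in a group called Lo and 11 in a group called Hi, whose meaning is not given, and no treatment is given. The mice were at most 20 weeks old, and the age at each tumor is not given. RNA came from small frozen pieces of tumor, so that any fat, muscle or skin in the piece was homogenized with it.

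White fat cells store triglyceride in a large lipid droplet. PPARG, the nuclear receptor that drives fat cell differentiation, switches on the genes of the droplet coat, of fatty acid uptake and of secreted adipokines, while the lipases ATGL (Pnpla2) and HSL (Lipe) release fatty acids from the droplet. The mammary gland grows inside a pad of such fat cells.

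Counts on genes ranged from 38765682 to 65465755 per tumor, with a median of 49881779, and 23557 to 25676 genes had a count. A ribosomal RNA locus took 6.29% to 27.7% of the counts. Levels are given as CPM, the counts of a gene relative to the size of its library, corrected with TMM factors. Where genes are compared with each other, levels are given as RPKM. This divides by the total count, without TMM factors, and by the gene's listed length. The epithelial identity of the pieces was seen in all of them, since the summed level of 7 epithelial genes was 3080 to 4130 CPM in the Lo tumors and 2610 to 4280 CPM in the Hi tumors. Skeletal muscle genes were uneven, since their summed level was 1.31 to 4.98 CPM in 11 tumors and 51.7 to 933 CPM in the other 9. Skin genes stood apart in Hi 3, at 308 CPM.

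The promoters of 4 of the members that moved together over the tumors, and that of Pnpla2, which did not go with them, are shown. The windows of Retn and Cfd, which also moved together with these, held no match to the motifs and are not shown. For Fabp4, which moved with them too, no window was found. The promoters shown thus do not stand for all members. Each is the 250 bases before the start of a RefSeq transcript (GRCm38.p6, the mm10 reference of strain C57BL/6, so that variants of BALB/c and FVB/J are not in it), on the gene's own strand. Of the windows of Cidec, the one with a match is shown. Capitals mark matches to the motifs named after the sequences.
Adipoq, chr16:23146286-23146535, plus strand: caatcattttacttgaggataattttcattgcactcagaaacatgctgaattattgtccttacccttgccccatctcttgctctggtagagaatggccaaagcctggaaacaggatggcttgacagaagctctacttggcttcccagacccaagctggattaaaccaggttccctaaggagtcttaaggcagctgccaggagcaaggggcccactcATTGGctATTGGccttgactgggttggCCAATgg
Plin1, chr7:79732777-79733026, minus strand: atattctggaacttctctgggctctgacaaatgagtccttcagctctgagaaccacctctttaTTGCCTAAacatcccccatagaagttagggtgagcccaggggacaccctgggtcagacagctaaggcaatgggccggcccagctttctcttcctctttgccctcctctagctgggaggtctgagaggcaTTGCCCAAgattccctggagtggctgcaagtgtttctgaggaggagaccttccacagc
Cidec, chr6:113434765-113435014, minus strand: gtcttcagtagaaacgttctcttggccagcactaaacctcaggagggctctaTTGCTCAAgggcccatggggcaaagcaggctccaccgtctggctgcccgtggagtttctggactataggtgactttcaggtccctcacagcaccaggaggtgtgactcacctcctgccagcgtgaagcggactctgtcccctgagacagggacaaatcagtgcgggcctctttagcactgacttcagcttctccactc
Lep, chr6:29059971-29060220, plus strand: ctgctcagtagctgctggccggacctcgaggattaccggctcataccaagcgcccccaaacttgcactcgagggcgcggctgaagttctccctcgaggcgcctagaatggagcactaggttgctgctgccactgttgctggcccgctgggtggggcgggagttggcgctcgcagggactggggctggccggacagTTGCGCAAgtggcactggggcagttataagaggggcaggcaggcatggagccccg
Pnpla2, chr7:141454938-141455187, plus strand: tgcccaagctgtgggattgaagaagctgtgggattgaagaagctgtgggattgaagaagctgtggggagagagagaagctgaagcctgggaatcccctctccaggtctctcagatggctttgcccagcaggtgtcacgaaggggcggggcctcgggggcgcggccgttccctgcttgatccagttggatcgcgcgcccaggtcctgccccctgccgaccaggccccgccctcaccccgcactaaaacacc

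Windows were found for 9 of the 10 members, 13 windows in all, and were searched on both strands. The paired C/EBP half-sites TTGCNNAA are bound by a family of factors that act with PPARG in fat cells. They were found in 4 of these 13 windows, from 4 members. Of the 32851 RefSeq windows of this length, 9.56% hold them. Plin1 had 2 matches, Cidec 1, and Lep a match that reads the same on both strands, at -55 to -48 from the transcript start. Pparg also had matches, in the window of another start, and none was in the windows of Adipoq, Lipe, Pnpla2, Retn or Cfd. The CCAAT box (CCAAT, in 33.8% of all windows) was found in Adipoq, 3 times, and in Pparg. The TATA box TATAAA (12.4% of windows) and the nuclear receptor half-site AGGTCA (14% of windows) were found in Pparg. The PPAR direct repeat, this half-site repeated after 1 base, is bound by PPARG with its partner RXR. It was in none of the 13 windows of the 9 members searched, and in 11 windows of all. A match is a description of letters, and the absence of one says only that these letters are not in the window.

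Adipoq (ENSMUSG00000022878, Chr16, 23146536 to 23158028, plus strand) encodes adiponectin, a hormone that fat cells secrete. Its level was 0.342 CPM in the lowest tumor (Lo 2), 1.42 CPM at the median and 4.37 CPM in the highest (Lo 9), a 12.8-fold range that rests on 12 to 293 counts. The tumors were spread along this range, with the widest step, 0.713 on the log2 scale, between 12 tumors at or under 1.94 CPM and 8 tumors at or over 3.2 CPM. Both groups reached both ends. In bulk samples, fewer fat cells and less RNA per fat cell cannot be told apart, which holds for each level given here.

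The other secreted members varied as widely. Cfd (ENSMUSG00000061780, Chr10, 79890853 to 79892656, plus strand), which encodes adipsin, the complement factor D protease of fat, was lowest in Hi 4 at 0.759 CPM, had a median of 7.29 CPM and was highest in Hi 7 at 17.2 CPM. Retn (ENSMUSG00000012705, Chr8, 3655770 to 3660110, plus strand), the gene of resistin, had no count in Lo 1, a median of 0.297 CPM and a highest level of 1.28 CPM in Hi 6, at least 23.1-fold higher than the 3 counts that a count of 0 allows in that library. Lep (ENSMUSG00000059201, Chr6, 29060220 to 29073877, plus strand), which encodes the satiety hormone leptin, had no count in Lo 2 and Hi 8, a median of 0.153 CPM and 0.961 CPM in Hi 6. Retn and Lep thus rested on at most 75 and 55 counts, so that their levels in the lower tumors are imprecise.

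Among the droplet genes, Plin1 (ENSMUSG00000030546, Chr7, 79721164 to 79732776, minus strand), the perilipin that guards the droplet against lipases, had no count in Lo 2 and Hi 4. Its median was 0.423 CPM and its highest level 2.04 CPM in Hi 9, at least 23.9-fold over the floor of 3 counts in 1 library. Cidec (ENSMUSG00000030278, Chr6, 113424634 to 113435760, minus strand), whose product fuses droplets into a large one, ranged from 0.0569 CPM in Hi 4 through a median of 1.84 CPM to 7.05 CPM in Hi 9. This was the widest range of the members above 0 in every tumor, a ratio of 124, but its low end is 3 counts, and the exact 95% interval for counting error is 42.2 to 603. Fabp4 (ENSMUSG00000062515, Chr3, 10204088 to 10208576, minus strand), the fatty acid carrier of fat cells, which macrophages and endothelial cells also use, went from 4.54 CPM in Lo 1 through a median of 13.3 CPM to 41.2 CPM in Hi 6, 9.08-fold.

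The remaining 3 members varied less. Pparg (ENSMUSG00000000440, Chr6, 115361221 to 115490401, plus strand) was at 0.228 CPM in Lo 2, 0.76 CPM at the median and 1.31 CPM in Hi 6, 5.73-fold. Lipe (ENSMUSG00000003123, Chr7, 25379527 to 25398710, minus strand), the hormone-sensitive lipase, stayed between 10.1 CPM (Lo 3) and 17.3 CPM (Hi 9), with a median of 13.9 CPM. Pnpla2 (ENSMUSG00000025509, Chr7, 141455198 to 141460743, plus strand), the first lipase of triglyceride breakdown, which many tissues use, stayed between 43.8 CPM (Hi 3) and 79.3 CPM (Lo 11), with a median of 64.3 CPM. The span of Pparg, introns included, overlaps the antisense gene Gm44079, and that of Lipe the antisense gene 4732471J01Rik. Whether their exons overlap was not tested. Since the strand setting of the counting is not given, reads in any shared exon cannot be told apart.

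**Figure D1:**
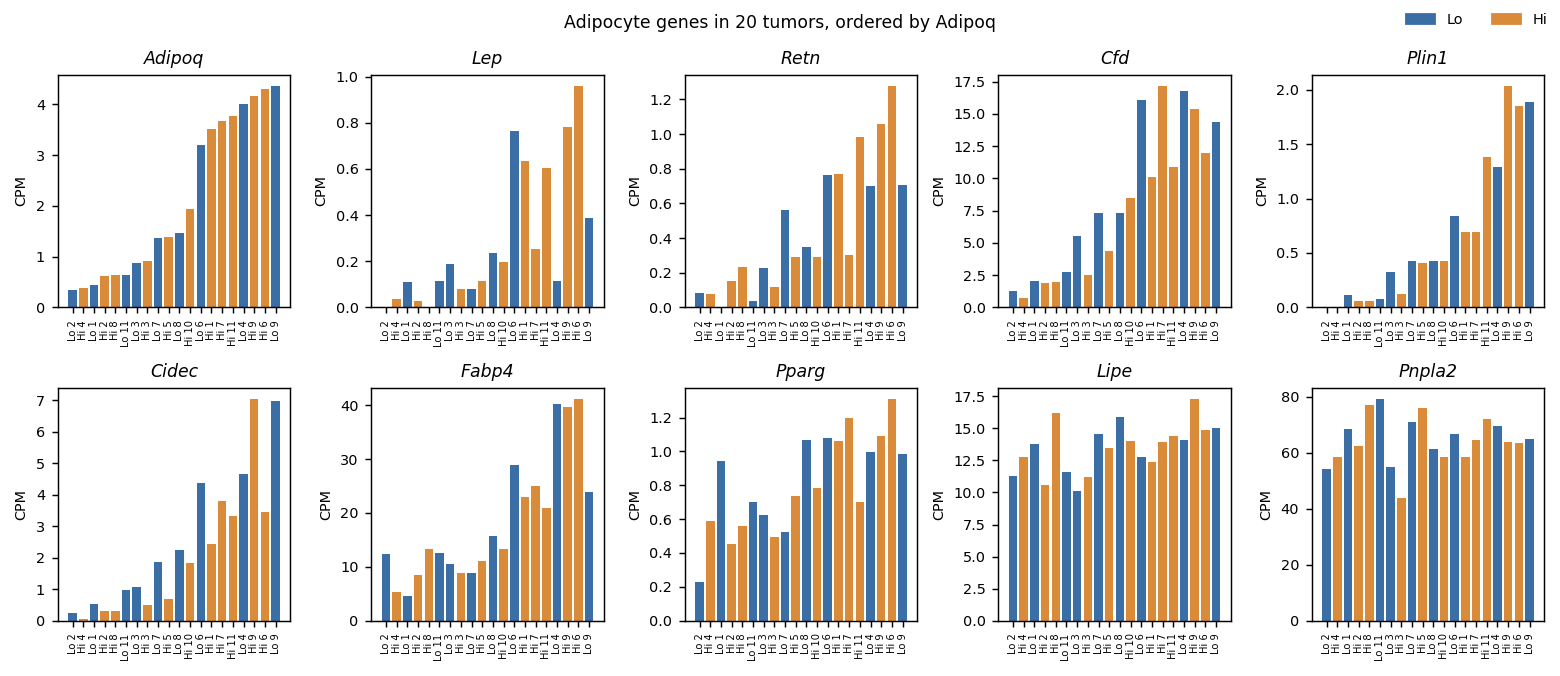
Level of each adipocyte gene in CPM (vertical axes, from 0, each with its own scale) in the 20 tumors, ordered along every horizontal axis by Adipoq, with Lo tumors in blue and Hi tumors in orange. Bars of Plin1, Cfd and Cidec climb with Adipoq from left to right, whereas Lipe (10.1 to 17.3 CPM) and Pnpla2 (43.8 to 79.3 CPM) are nearly level.

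Set against all 18883 genes that passed the filter on low counts, which all 10 members did, 7 members were among the most variable. Their SD of log2 CPM over the tumors was 1.83 for Plin1, 1.73 for Cidec, 1.43 for Lep, 1.39 for Retn, 1.38 for Cfd, 1.27 for Adipoq and 0.924 for Fabp4, and lay between percentiles 97.0 and 99.7 of these genes. Over all genes the median SD was 0.251, and the median gene above 0 in every tumor varied 1.93-fold. Pparg (SD 0.573, percentile 85.1) came next. Lipe (0.209, percentile 39.5) and Pnpla2 (0.202, percentile 37.0) varied less than the median gene. These SDs depend on the scale for genes of low level, since on log2(RPKM + 1), where the added 1 is larger than the level of several members, the SD fell to 0.112 for Lep (percentile 13.1), 0.257 for Retn (79.4), 0.35 for Plin1 (91.2) and 0.157 for Pparg (36.3), and Lipe (0.194, percentile 56.7) and Pnpla2 (0.211, percentile 65.0) were above the median gene. By the CV of CPM, which adds nothing to the values and was computed after the data were seen, the 7 members lay between percentiles 96.2 and 99.1, Pparg at 80.5, Lipe at 38.3 and Pnpla2 at 34.1. Both SD and CV include counting error, which is large for Lep, Retn and Plin1, with medians of 8, 16 and 21 counts. The SD of Adipoq was 1.32 within the Lo and 1.26 within the Hi tumors, so that the spread lay inside both groups.

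Per length, the levels of the members spanned a wide range. Pnpla2 was highest with 21.4 ± 3.15 RPKM (SD, n = 20), then Cfd with 8.54 ± 6.11, Fabp4 with 4.06 ± 2.53, Lipe with 3.01 ± 0.533, Adipoq with 1.51 ± 1.12, Cidec with 1.25 ± 1.16, Pparg with 0.408 ± 0.152, Plin1 with 0.34 ± 0.353, Retn with 0.283 ± 0.239 and Lep with 0.0843 ± 0.0874 RPKM. Of the 9 neighbors in this order, Pnpla2 and Cfd, and Lipe and Adipoq, differed by more than the larger SD, with the first above the second in 20 of 20 tumors. The other 7 neighboring pairs did not differ by more than the larger SD, a spread between tumors that ignores that both genes were read in the same tumors. Within tumors, the first of these pairs was above the second in 12 to 18 of 20. The listed lengths of Plin1 (1916 bases), Pparg (1984 bases) and Lipe (4518 bases) are shorter than their GENCODE exons (4649, 2953 and 5886 bases). With the GENCODE lengths, Lipe had 2.31 RPKM and was above Adipoq in 12 of 20 tumors, a difference no longer beyond the SD. Pnpla2 and Cfd were then the one pair that differed by more than the larger SD. Retn (0.283 RPKM) then came before Pparg (0.274) and Plin1 (0.14). The listed length of Fabp4 (4489 bases) equals the whole span of the gene, introns included. Its GENCODE exon length is the same, so its RPKM may be too low, and its place in both orders is uncertain.

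Whether the members moved together was asked by correlating the log2 CPM of each of 18882 genes with that of Adipoq over the 20 tumors, with 100000 permutations and Benjamini-Hochberg adjustment over all genes. Of the 9 other members, 6 rose with Adipoq at an adjusted p under 0.05, against 14 genes, or 0.0741%, of all genes tested. An edgeR count model with Adipoq as covariate, added after the data were seen, called 16 genes, or 0.0847%, and 6 members. No gene fell with Adipoq past this threshold, although 1330 genes in either direction had an unadjusted p under 0.05. All 6 had the smallest permutation p that 100000 permutations can give (1e-05, adjusted p = 0.0135). The median r of the members was 0.868, and that of all genes 0.011.

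Plin1 had the highest r of all genes, 0.959 (Spearman's rho 0.974, permutation p = 1e-05). It was 0.958 within the Lo and 0.976 within the Hi tumors, and 0.948 when the 2 tumors with the most extreme Adipoq were left out. Cfd came second with r = 0.955 (rho 0.911, permutation p = 1e-05; 0.976 in Lo, 0.98 in Hi, 0.948 without the 2 tumors). Cidec followed with r = 0.925 (rho 0.931, permutation p = 1e-05; 0.985 in Lo, 0.978 in Hi, 0.917 without the 2 tumors). Its r was thus higher within each group than over all tumors. Whether the ratio of Cidec to Adipoq differed between Lo and Hi was not tested. By r, the droplet coat and adipsin were thus nearest to adiponectin.

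Retn had r = 0.884 (rho 0.889, permutation p = 1e-05; 0.881 in Lo, 0.894 in Hi, 0.873 without the 2 tumors). Fabp4 had r = 0.868 (rho 0.859, permutation p = 2e-05; 0.813 in Lo, 0.918 in Hi, 0.891 without the 2 tumors). Lep had r = 0.835 (rho 0.832, permutation p = 2e-05; 0.697 in Lo, 0.938 in Hi), and without the 2 tumors its r of 0.787 no longer passed (adjusted p = 0.167). In Lo 4, which had the fourth highest Adipoq, 4.0 CPM, Lep was at 0.113 CPM from 5 counts.

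Pparg, Lipe and Pnpla2 did not pass. Pparg had r = 0.738 (rho 0.743, permutation p = 0.00034; 0.642 in Lo, 0.857 in Hi, 0.683 without the 2 tumors) with an unadjusted permutation p of 0.00026 for r, which the adjustment over all genes took to 0.213. Lipe had r = 0.488 (rho 0.549, permutation p = 0.0128; 0.516 in Lo, 0.444 in Hi, 0.435 without the 2 tumors) with permutation p = 0.0291 and adjusted p = 0.689. For Pnpla2, r was 0.144 (rho 0.177, permutation p = 0.453; 0.22 in Lo, 0.134 in Hi) with permutation p = 0.552 and adjusted p = 0.927, and it changed sign to -0.0271 without the 2 tumors. By r, these genes took places 19, 459 and 5775 among 18882.

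**Figure D2:**
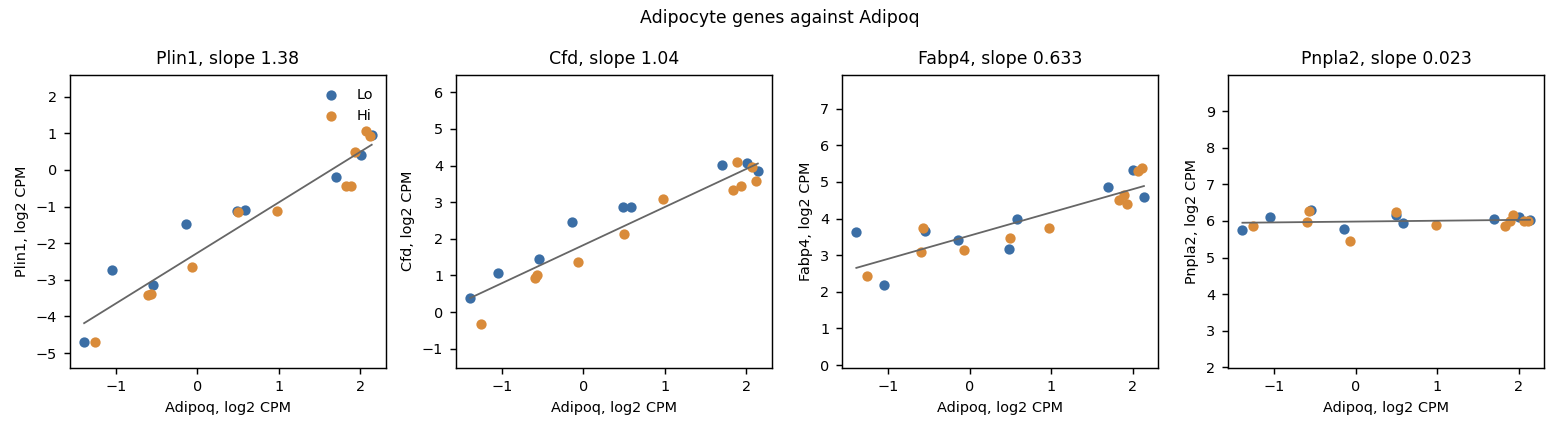
Log2 CPM of 4 members (vertical axes, all spanning the same number of log2 units) against log2 CPM of Adipoq (horizontal axis), 1 point per tumor, Lo in blue and Hi in orange, with the least-squares line. The slope falls from 1.38 for Plin1 through 1.04 for Cfd and 0.633 for Fabp4 to 0.023 for Pnpla2.

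How steeply each member followed Adipoq was read from the slope of an edgeR count model, in log2 units per log2 unit of Adipoq. The slope was 1.5 (SE 0.132) for Plin1, 1.24 (SE 0.119) for Cidec, 1.17 (SE 0.177) for Lep, 1.06 (SE 0.139) for Retn and 1.03 (SE 0.0778) for Cfd. It was lower for Fabp4 (0.614, SE 0.078), Pparg (0.313, SE 0.0765), Lipe (0.0779, SE 0.0349) and Pnpla2 (0.017, SE 0.0353). A slope of 1 is a fixed ratio between tumors. The log2 ratio to Adipoq had the lowest SD for Cfd, 0.413, against 0.652 for Retn, 0.653 for Fabp4, 0.71 for Plin1, 0.735 for Cidec and 0.789 for Lep. These SDs include counting error, which is larger for Lep, Retn and Plin1 (medians of 8, 16 and 21 counts) than for Cfd (368).

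A straight line of CPM on Adipoq CPM gives the same pattern as a level that remains where Adipoq is extrapolated to 0. For Retn it was 0.00329 CPM (SE 0.0717), for Lep -0.0291 CPM (SE 0.0727), for Cidec -0.287 CPM (SE 0.371) and for Cfd 0.689 CPM (SE 0.832), each within its SE of 0. For Plin1 it was -0.184 CPM (SE 0.103). Fabp4 kept 4.55 CPM (SE 2.11), 24.8% of its mean. Pparg kept 0.512 CPM (SE 0.0746), 63.5% of its mean, Lipe 12.3 CPM (SE 0.664), 90.7%, and Pnpla2 63.3 CPM (SE 3.37), 98.2%. For Pparg and both lipases, the extrapolated level was thus most of the mean. This line was added after the data were seen.

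Between the members themselves, the 45 pairs had an r of 0.0444 to 0.975, with a median of 0.737. The 21 pairs among Adipoq, Lep, Retn, Cfd, Plin1, Cidec and Fabp4, a set named after the values were seen, ran from 0.681 to 0.975. Pnpla2 reached at most 0.456 in its 9 pairs, the highest with Lipe, whose other 8 pairs ran from 0.331 to 0.528. The pairs share their libraries and their scaling, and are given without a test.

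**Figure D3:**
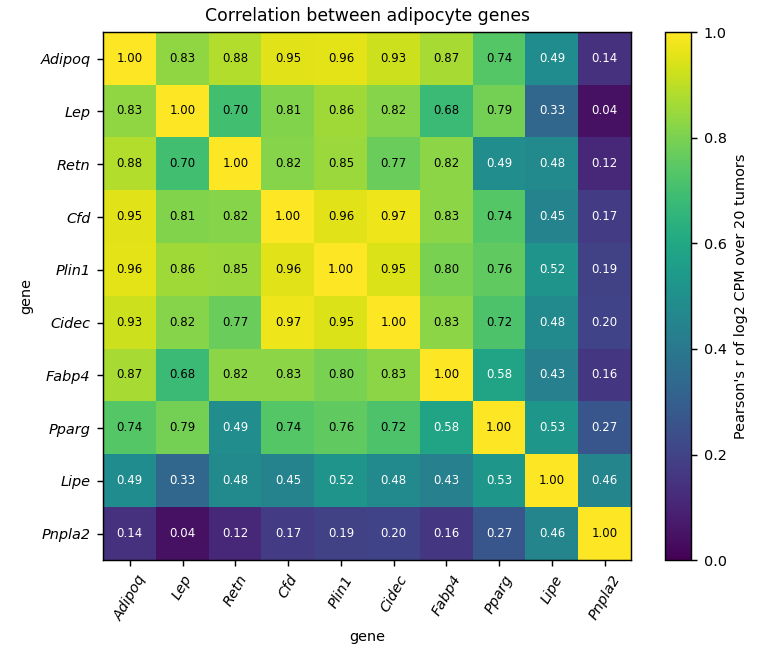
Pearson's r of log2 CPM over 20 tumors between each pair of adipocyte genes, on a color scale from 0 to 1. The 7 genes from Adipoq to Fabp4 form a block of 0.681 and over, and the rows of Lipe and Pnpla2 are dark.

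Outside the members, 8 genes passed with Adipoq, and these are the genes whose pattern was most like it over the 20 tumors. Pck1, which makes glycerol phosphate for triglyceride in fat cells, had r = 0.924, the haptoglobin gene Hp 0.916, the carboxylesterase gene Ces1d 0.915 and the perilipin Plin4 0.908. Sncg, the gene of synuclein gamma, had 0.876, the carbonic anhydrase gene Car3 0.871, the sialyltransferase gene St6galnac5 0.842 and the amino acid transporter gene Slc7a10 0.81. Each had an adjusted permutation p of 0.0135 and an r of 0.744 or more without the 2 tumors. Ces1d has near-identical neighbors, so that its counts are uncertain. Zadh2 (r = 0.784, adjusted p = 0.0504) and Tusc5 (r = 0.778, adjusted p = 0.0777) came next and did not pass. The lowest r were those of Fam102a (-0.749, adjusted p = 0.198), RP23-323H18.2 (-0.73, adjusted p = 0.16), Pik3r3 (-0.706, adjusted p = 0.313), Spg11 (-0.699, adjusted p = 0.373) and Tmeff1 (-0.694, adjusted p = 0.486).

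Among 16 other genes of mature fat cells, 13 could be tested and 4 rose with Adipoq (Pck1, Plin4, Sncg and Car3), with a median r of 0.431. The lipoprotein lipase Lpl, which brings fatty acids into fat cells, had r = 0.709 (adjusted p = 0.273). The lowest was Lgals12, the galectin of fat cell droplets, at -0.156. Adrb3, Acvr1c and Aqp7 had too few counts to be tested.

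The partners of the lipases and the transcription factors of fat cells did not move with Adipoq beyond the threshold. Of 10 lipolysis partners none passed (median r 0.145), with the phosphodiesterase Pde3b (0.508), the adrenergic receptor Adrb1 (0.408) and the protein kinase A subunit Prkar2b (0.356) highest and G0s2, the inhibitor of ATGL, lowest at 0.00942. Of 10 transcription factors none passed (median 0.124), from Cebpa at 0.455, Ebf1 at 0.337 and Klf15 at 0.279 to the coactivator Ppargc1b at -0.37. Of 8 enzymes of fatty acid synthesis none passed (median -0.0841), from the malic enzyme Me1 at 0.335, Gpam at 0.185 and Scd1 at 0.0581 to Acaca, acetyl-CoA carboxylase, at -0.367. Of 9 brown fat genes 5 could be tested and none passed (median 0.156), from Cidea at 0.234, Cox7a1 at 0.185 and Dio2 at 0.156 to Ppargc1a at 0.0949.

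The receptors and relatives of the members were likewise not called. The 6 receptors of adipokines had a median r of 0.0987, with the leptin receptor Lepr (0.236), Cdh13 (0.151) and Cap1 (0.101) highest and Tlr4 lowest at 0.0187. The adiponectin receptors Adipor1 (141 ± 16.8 CPM, SD, n = 20) and Adipor2 (101 ± 9.41 CPM) had r of 0.0968 and 0.0775. Of 5 genes of the alternative complement pathway, in which adipsin acts, with a median of 0.28, C3 had r = 0.609 (adjusted p = 0.596), Cfi 0.28 and Cfb -0.00372. Of 8 relatives of the members, with a median of 0.102, Retnla, a resistin-like gene, had r = 0.608 (adjusted p = 0.596), the perilipin Plin3 0.225 and Fabp3 0.139, and Fabp7 was lowest at -0.126. Fabp5, the epidermal relative of Fabp4, had r = 0.0385 and was higher by listed length (18.6 RPKM), although the RPKM of Fabp4 is uncertain.

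**Figure D4:**
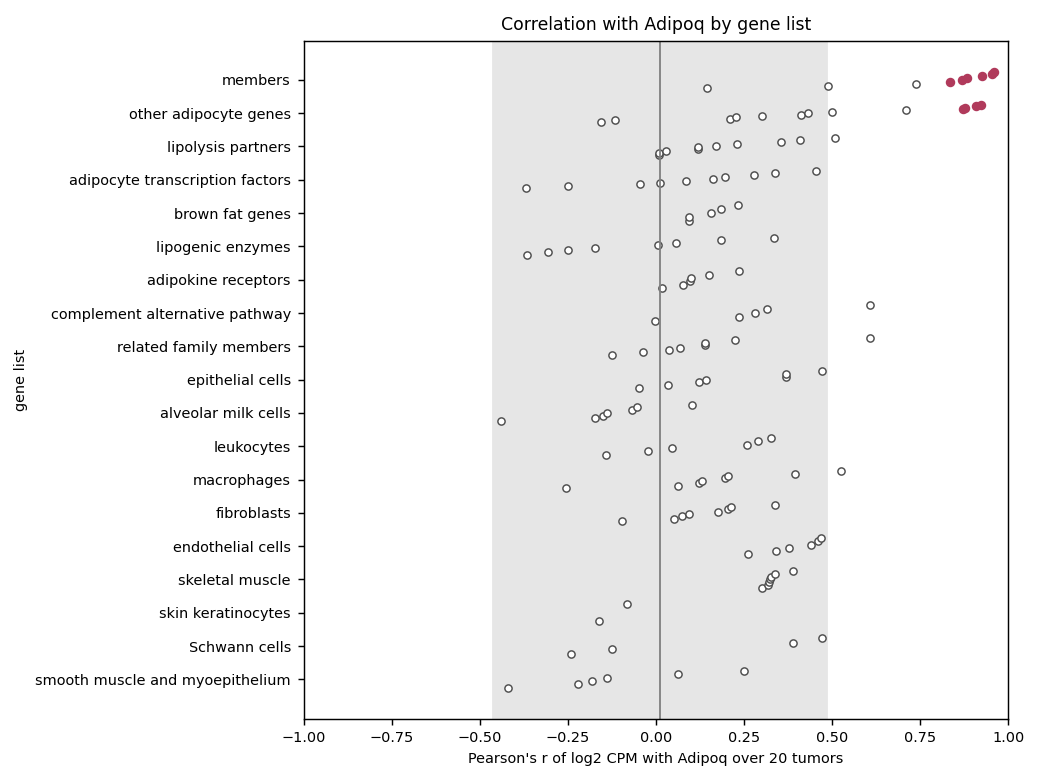
Pearson's r with Adipoq (horizontal axis) of each tested gene of 19 lists (rows), filled where the adjusted p was under 0.05. The gray band spans 95% of all genes tested, from -0.462 to 0.486, and the line is their median, 0.011. Filled points are seen in 2 rows, the members and the other adipocyte genes.

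Other cells in the pieces were measured beside the adipocyte genes, and their part in these results was not tested. No gene of the lists for epithelial cells (median r with Adipoq 0.141), alveolar milk cells (-0.139), leukocytes (0.152), macrophages (0.163), fibroblasts (0.134), endothelial cells (0.409), skeletal muscle (0.323), skin keratinocytes (-0.121), Schwann cells (0.132) or smooth muscle and myoepithelium (-0.16) passed. The highest single values among them were those of the mannose receptor Mrc1 of macrophages (0.525), the myelin gene Mbp (0.471), the claudin Cldn3 (0.47) and the endothelial cadherin Cdh5 (0.469). Adipoq was also set against the mean log2 CPM of each of these lists and of the brown fat genes, the share of the ribosomal RNA locus and the total count, 13 relations in all, of which none passed adjustment over the 13. The highest was that with the brown fat list, r = 0.513 (permutation p = 0.0175, adjusted p = 0.227; rho 0.501, permutation p = 0.0268, adjusted p = 0.341), which was 0.409 without its 2 most extreme tumors, 0.449 in Lo and 0.683 in Hi. From the 5 of its 9 genes with enough counts to test, an alternative added after the data were seen, r was 0.303 (permutation p = 0.193, adjusted p = 0.503; rho 0.229, permutation p = 0.33; 0.133 without 2 tumors). Among the other 4 genes, Cox8b was highest in the 4 tumors highest in muscle genes, at 1.53 CPM in Hi 6, 1.42 in Lo 4, 0.81 in Hi 1 and 0.752 in Hi 9. The endothelial list had r = 0.435 (permutation p = 0.0555, adjusted p = 0.349; rho 0.442, permutation p = 0.0524), 0.353 without 2 tumors, 0.662 in Lo and 0.227 in Hi.

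Skeletal muscle genes had r = 0.333 with Adipoq (permutation p = 0.15, adjusted p = 0.389; rho 0.271, permutation p = 0.248), 0.138 without its 2 most extreme tumors, 0.162 in Lo and 0.496 in Hi. The 4 tumors highest in muscle genes were Hi 6 (933 CPM), Lo 4 (556 CPM), Hi 1 (324 CPM) and Hi 9 (157 CPM). All 4 had 3.51 CPM of Adipoq or more. Lo 9, the tumor highest in Adipoq, Hi 11 and Hi 7 also had 3.51 CPM or more. Their muscle genes were at 2.96, 1.68 and 1.96 CPM. Without Hi 6 and Lo 4, a fit added after the data were seen, the same 6 members passed, among 13 genes in all. Their r was between 0.846 and 0.953, with an adjusted permutation p of 0.0157. Hi 1 and Hi 9 stayed in this fit, and the part of muscle was not tested. The total count (r = -0.0304, permutation p = 0.897; rho 0.0511, permutation p = 0.831; -0.0643 without 2 tumors, 0.332 in Lo, -0.316 in Hi) and the share taken by ribosomal RNA (r = 0.0652, permutation p = 0.783; rho 0.0692, permutation p = 0.771; -0.243 without 2 tumors, 0.422 in Lo, -0.256 in Hi) did not pass.

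For Lo against Hi, the quasi-likelihood test of edgeR was run over 18883 genes. None of the 10 members passed, against 0% of all genes, since 0 genes had an adjusted p under 0.05 (1045 had an unadjusted p under 0.05, and DESeq2 called 1 gene, the serpin Serpina3g, higher in Lo). Adipoq was at 0.342 CPM at the lowest, 1.37 CPM at the median and 4.37 CPM at the highest in the 9 Lo tumors, and at 0.379, 1.94 and 4.31 CPM in the 11 Hi tumors. The groups overlapped along their whole range. The log2 fold change, Lo over Hi, was -0.31 with a 95% interval of -1.34 to 0.73 (edgeR adjusted p = 1.0), and these tumors do not exclude a difference inside this interval. Beside this comparison, the ribosomal RNA locus took 18.4% of counts on average in Lo and 13.7% in Hi, and the median summed level of muscle genes was 51.7 CPM in Lo and 3.65 CPM in Hi, and their part in it was not tested.

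The adjusted p was 1.0 for every other member too, by the same edgeR test, and the groups overlapped for each. The intervals were widest for Plin1 (log2 fold change -0.22, -1.69 to 1.25), Lep (-0.59, -1.95 to 0.77) and Cidec (0.24, -1.07 to 1.54), and intermediate for Retn (-0.4, -1.6 to 0.79), Cfd (0.07, -1.0 to 1.13), Fabp4 (-0.12, -0.9 to 0.66) and Pparg (-0.03, -0.54 to 0.49). They were narrow for the lipases, Lipe (-0.05, -0.25 to 0.14) and Pnpla2 (0.04, -0.14 to 0.22). The median log2 fold change of the members was -0.0876, and that of all genes 0.00098. No gene of the other 18 lists passed.

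**Figure D5:**
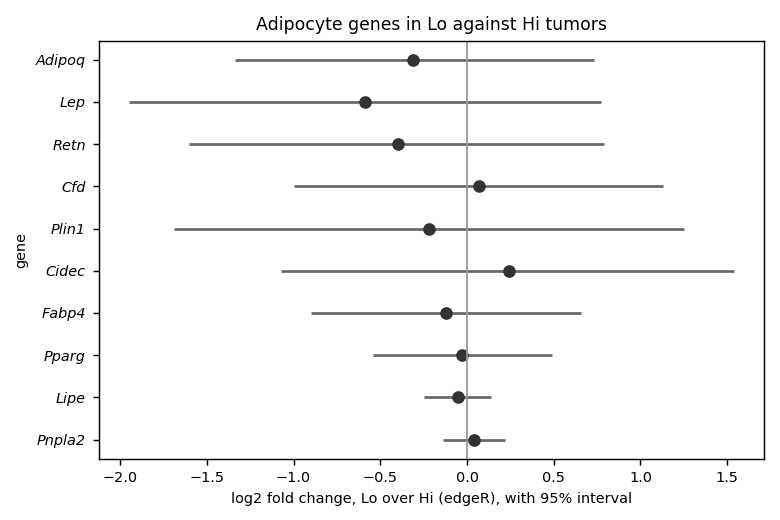
Log2 fold change of Lo over Hi tumors from edgeR (horizontal axis) for each adipocyte gene (vertical axis), with 95% intervals as bars. Every interval spans 0. The narrowest is that of Pnpla2 (-0.14 to 0.22) and the widest that of Plin1 (-1.69 to 1.25).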

How the data were processed

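Total RNA of 20 frozen tumor pieces was made into TruSeq mRNA libraries and sequenced in paired-end reads that were trimmed to 100 bases. The authors deposited raw read counts, a column for each tumor and a row for each gene, and pooled no tumors. The submitters' processing notes name TopHat2 2.0.12, featureCounts 1.4.4 and the builds mm10 and hg19 (human), with no role, and the methods give mm10 for alignment. Whether counting used strand, and from which annotation release, is not given in the sources used here. The reference is that of C57BL/6, and what strain variants did to the counts of single genes was not tested.

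Of 43346 rows, 0 named no gene. No pair of tumors had identical counts, and the chi-square per gene between tumors was at least 39.1. Each tumor came from another mouse. CPM (TMM factors, prior count of 2 on the log2 scale) and RPKM (total count and listed length) were computed here from the deposited counts. Intervals and the floor of 3 counts cover the error of counting alone, as no molecular identifiers were used.

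Lo and Hi tumors were compared with the quasi-likelihood test of edgeR 4.0.16 in R 4.3.3, after filterByExpr and TMM, and p-values were adjusted by Benjamini-Hochberg with a threshold of 0.05. DESeq2 1.42.0 was an alternative. The standard error of a fold change was derived from its F statistic. Correlations used 100000 two-sided permutations in Python 3.11.15 (numpy 2.4.6, scipy 1.17.1). Both scripts were tested on simulated data. Genes to name were all members, in each list the 3 with the highest and the 1 with the lowest r with Adipoq (for cell type lists the text gives those highest of all), the 10 highest and 5 lowest r outside the members, and up to 3 genes per direction between Lo and Hi. The value of 1 gene that this rule names is not reported here. Lpl, Adipor1, Adipor2 and Fabp5 were named after their values were seen. The members and the 19 lists were chosen with earlier results of these data known. The listed symbol Adgre1 was found by its identifier, as Emr1. Most alternatives changed 1 choice, but log2(RPKM + 1) also dropped TMM and changed the pseudocount, and the replicate block dropped 2 tumors. The edgeR model with Adipoq, the straight line, the fit of the same 18 tumors without the block, the fit without the 2 tumors highest in muscle genes, the brown fat list from its testable genes and the percentile of the CV were added after the data were seen.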

Additional observations from a re-analysis of the deposited data

Results flagged for a closer look

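In Lo 2, the tumor with the lowest Adipoq, 2 values stood apart from the other Lo tumors. Pparg was at -1.91 log2 CPM, with the next Lo tumor at -0.83, and this gap took up 0.518 of the range of the 9 tumors. The log2 ratio of Cidec to Adipoq was lowest in Lo 2 at -0.37, with the next at 0.22, and this gap took up 0.563 of the range. The ratio rests on 9 counts of Cidec and 12 of Adipoq, whose log2 ratio has an exact 95% interval for counting error of -1.84 to 0.96, and Pparg in Lo 2 rests on 8 counts. The ratio was lower than in Lo 2 in 6 of the 11 Hi tumors, down to -2.13. The critical value for 9 tumors is 0.493. The test was made on 19 groups of values, of which chance gives 0.95.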

How the results depend on the processing

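The 6 members that rose with Adipoq kept a positive r, or in the edgeR model a positive slope, in each of 12 settings. Plin1, Cidec, Fabp4, Retn and Cfd passed in 11 of the 12, and Lep in 10, since it was lost without the 2 tumors most extreme in Adipoq (r = 0.787, adjusted p = 0.167). The number of genes called was 13 to 16 in the settings other than the replicate block. With the replicate block, taken as differences of the 9 pairs with the same number, 0 genes were called by the exact permutation test (1336 at an unadjusted p under 0.05), and r was 0.952 for Plin1, 0.977 for Cidec, 0.88 for Fabp4, 0.79 for Lep, 0.861 for Retn and 0.981 for Cfd. Fewer points enter this setting. What the numbers in the names pair is not given. The deviations of same-numbered tumors correlated between -0.418 and 0.208, over 0.1 in 3 of 9 pairs. They were not compared with those of differently numbered tumors, so they do not show whether the numbers pair the tumors. In Lo against Hi, the block left 0 genes called (872 at an unadjusted p under 0.05, edgeR), as did the same 18 tumors without it (954).

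The r of Pnpla2 with Adipoq changed sign to -0.0271 without the 2 tumors and to -0.121 in the pair differences. Without TMM, the fold changes of Pnpla2 and Cfd between Lo and Hi changed sign to -0.04 and -0.07. DESeq2 called 1 gene between Lo and Hi (Serpina3g), and 1 gene (Mir7671) was called without the filter on low counts. With the 2 most extreme tumors of each measure left out, the r of Adipoq changed sign to 0.0693 for alveolar genes, -0.0465 for leukocytes, -0.0772 for fibroblasts, 0.21 for skin genes and -0.243 for the share of the ribosomal RNA locus. The cause was not tested. The median SD of the members went from 1.33 to 0.304 on log2(RPKM + 1), where the added 1 exceeds the level of several members. Depth limits Lep, Retn and Plin1, which had no count in 1 or 2 tumors.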

Other observations

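Ucp1, the uncoupling protein of brown fat, stood out in Lo 4, which was singled out after its values were seen. It had 95 counts there (2.15 CPM), against 0 to 8 counts (at most 0.152 CPM) in the other 19 tumors. Otop1 was at 0.362 CPM in Lo 4, from 16 counts, against at most 0.197 CPM. Elovl3 was at 0.0905 CPM in Lo 4 and at most 0.0794 CPM elsewhere. Its 4 counts there equal the highest count in the other tumors, so by count Elovl3 did not stand out. The other 6 brown fat genes lay within the range of the other tumors, with Cox8b at 1.42 CPM (others up to 1.53), Dio2 at 4.7 (1.59 to 4.75), Cox7a1 at 4.86 (1.93 to 6.38), Prdm16 at 0.339 (0.0378 to 0.617), Cidea at 13.6 (8.51 to 23.3) and Ppargc1a at 16.7 CPM (15.7 to 24.0). Lo 4 also had 4.0 CPM of Adipoq, 0.113 CPM of Lep and 556 CPM of skeletal muscle genes. This is 1 tumor with no replicate.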
